A study of Rattus norvegicus with 196 samples.

Results

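The prelimbic cortex (PLC) and the infralimbic cortex (ILC) were compared in rats that received no drug. The comparison rested on 8 of the 196 bulk RNA-seq libraries of the series: the 4 Sham libraries of PLC and the 4 Sham libraries of ILC, chosen by their treatment and region labels alone. Both regions carried replicate numbers 1, 3, 4 and 5, and a PLC and an ILC library with the same number were treated as a pair. Sham animals were male Long-Evans rats, 2 months old at the start, that drank plain water for 6 weeks. The matching fluoxetine (FT) animals received 18 mg/kg of the drug in their water over the same 6 weeks, and their 8 PLC and ILC libraries served as a second set of pairs and in joint fits of all 16 libraries. No genotype was altered in either group. Each library was made from tissue punches of 1 region pooled over several frozen brains, so a library averages over animals and over all cell types of the punch, and nothing about single animals can be read from it. The library kit was described as stranded total RNA, whereas the molecule label reads polyA RNA. For the Sham PLC library of replicate 1 the label states that the raw reads were corrupted, and only its counts were used.

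PLC and ILC are neighbouring areas of the medial prefrontal cortex, one above the other along the midline. In rodents both send excitatory output to the amygdala, striatum and brainstem. They are known for contrasting roles in the expression and the extinction of learned fear, and ILC has the denser output to visceral and autonomic centres. Each holds layered glutamatergic projection neurons and GABAergic interneurons, among them fast-spiking basket cells that contain the calcium-binding protein parvalbumin.

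The 2 genes that the results below turn on most are Cartpt, which encodes the precursor of the neuropeptide CART (cocaine- and amphetamine-regulated transcript), and Pvalb, which encodes parvalbumin. Their upstream sequences are shown so that the genes can be placed in the genome. Both were matched by symbol and taken from RefSeq on build GRCr8, whereas the deposited counts were made on rn5. Each run is the 250 bases before the annotated start, 5′ to 3′ on the gene's own strand, which is the minus strand for both. Capitals mark 2 motifs searched on both strands, TGACGTCA, the cAMP response element, and TATAA, the core of the box of that name.
Cartpt, chr2:32991236-32991485: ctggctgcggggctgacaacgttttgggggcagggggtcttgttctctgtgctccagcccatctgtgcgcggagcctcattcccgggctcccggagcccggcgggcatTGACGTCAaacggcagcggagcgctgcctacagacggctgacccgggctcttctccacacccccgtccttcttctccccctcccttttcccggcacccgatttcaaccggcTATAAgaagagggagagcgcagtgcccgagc
Pvalb, chr7:111666290-111666539: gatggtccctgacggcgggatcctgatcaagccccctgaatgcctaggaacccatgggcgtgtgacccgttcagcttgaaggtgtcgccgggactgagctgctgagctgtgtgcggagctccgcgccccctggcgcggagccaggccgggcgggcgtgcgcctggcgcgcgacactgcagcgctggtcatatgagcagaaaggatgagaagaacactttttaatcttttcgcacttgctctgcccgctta
The Cartpt window held TGACGTCA from -142 to -135 and TATAA from -31 to -27, counted from the start, with neither overlapping the other. The Pvalb window held neither run of letters. Among 33469 RefSeq rat windows of this length, 1.59% held TGACGTCA and 24% held TATAA, so the first is uncommon and the second is not. A match describes letters only.

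The 8 Sham libraries were not equally good. Total counts on 29188 transcripts ranged from 543403 in the ILC library of replicate 3 to 26436170 in the PLC library of replicate 1. The ILC library of replicate 3 had a read on 8800 transcripts, against 14879 to 19385 in the other 7. In that library a single read was worth 4.93 CPM (read counts scaled to library size by the trimmed mean of M-values), against 0.194 in the ILC library of replicate 1 and 0.0317 to 0.368 in the remaining 6. The ILC library of replicate 1 was deep, at 12853852 reads, but 82.9% of them lay on its 50 most counted transcripts. That share was 85.8% in ILC replicate 3 and 47.3% and 60.6% in the PLC partners of replicates 1 and 3. In replicates 4 and 5 it was 32.1% and 25.6% in ILC and 33% and 26.7% in PLC. In both of the unusual ILC libraries the most counted transcript was ENSRNOT00000074325, with 13.7% and 40.1% of reads, whereas in the other 6 it was ENSRNOT00000069133.

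**Figure D1:**
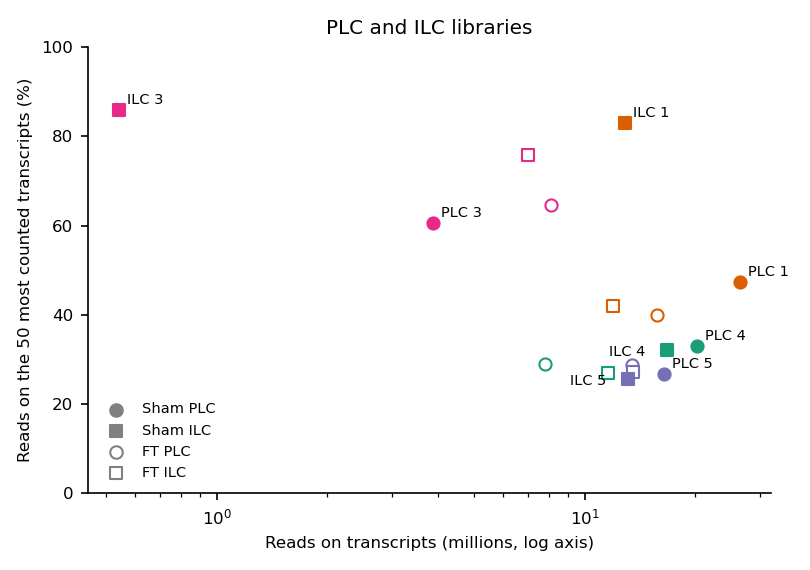
Reads on transcripts (in units of 1e6, log axis) against the percentage of reads on the 50 most counted transcripts, 1 point per PLC or ILC library. Filled symbols are Sham and open symbols FT, circles PLC and squares ILC, with 1 colour per replicate number. ILC 1 and ILC 3 lie at 82.9% and 85.8%, whereas both regions of replicates 4 and 5 lie at 33% or below.

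The same split ran through the pairs. Pearson's r between the log2 CPM of PLC and ILC across transcripts, which are not independent, was 0.836 in pair 1 and 0.745 in pair 3, against 0.99 in pair 4 and 0.993 in pair 5. PLC and ILC differed more than 2-fold on 45.6% of the 13401 tested transcripts in pair 1 and on 60.5% in pair 3. In pairs 4 and 5 this held for 1.78% and 0.724%. In the FT pairs it held for 0.841% to 11.3%. Values are therefore given pair by pair, and counts of calls also for pairs 4 and 5 alone, a subset chosen after the data were seen.

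Several cortical marker lists, but not all, were high in both regions. Ranked by mean level over the 25 Sham regions measured, the list of deep layer neuron genes ranked 1 in ILC and 3 in PLC, and the list of interneuron genes ranked 2 in PLC and 4 in ILC. Vip, a peptide of a cortical interneuron class, ranked 3 in PLC and 4 in ILC, whereas Sst ranked 7 and 12 and Pvalb 10 and 19. Upper layer genes ranked 4 and 5 and were highest in an amygdala region (CMA). Glutamatergic neuron genes ranked 8 and 5 and were highest in the dorsal dentate gyrus. Genes of cortical area patterning ranked only 15 in PLC and 24 in ILC. On the scale used for ranking, the mean log2 of CPM plus 1, their ILC libraries ran from 2.74 to 4.19. The region where that list was highest averaged 4.16. The lists named here held 5 to 22 transcripts each. In the ILC library of replicate 3, 4821 of 13401 tested transcripts had no read, and the part of this in the ILC ranks was not tested. Striatal genes ranked 21 of 25 in PLC and 23 in ILC. Septal and hypothalamic genes ranked 25 and 22, and oligodendrocyte genes ranked 25 and 24. Of the striatal markers, Ppp1r1b, which encodes DARPP-32, averaged 27.8 ± 8.08 CPM in PLC and 32 ± 21.2 CPM in ILC (SD, n = 4 each), against 405 CPM in NaCcore, where it was highest. No white matter, striatal or septal list was high in either region.

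Few transcripts separated PLC from ILC in the Sham rats beyond the spread between pairs. Fitted with edgeR's quasi-likelihood test with the replicate number as a block, 0 of 13401 transcripts passed an adjusted p of 0.1 and an absolute log2 fold change (log2FC) of 0.322, or 0% of those tested, and the smallest adjusted p was 0.946. At an unadjusted p under 0.05 there were 170 transcripts, 1.27% of those tested, of which 68 were higher in PLC (0.507%) and 102 in ILC (0.761%). On the same 4 pairs, DESeq2 called 1 of 22503 transcripts (0.00444%), Cartpt, and limma voom with a quality weight for each library called 13, of which 4 were higher in PLC and 9 in ILC (0.097% of 13401). Its weights were 0.19 and 0.582 for the ILC libraries of replicates 1 and 3, 0.202 and 0.437 for their PLC partners, and 2.81 to 3.59 for the 4 libraries of replicates 4 and 5. Because the fit is paired, both libraries of a pair deviate from it by mirrored amounts. These weights therefore rate pairs and do not show which partner is the poorer. On pairs 4 and 5 alone, edgeR called 28 of 14596 transcripts (0.192%), 11 higher in PLC and 17 in ILC, and DESeq2 called 6 (0.0279%). Leaving out replicate 1, 4 or 5 gave 3 (0.0218%), 9 (0.0704%) and 12 (0.0947%) calls in edgeR, leaving out replicate 3 gave 0, and dropping the filter on low counts gave 34 (0.151%), all higher in ILC, with a median of 85.5% of their reads from the ILC library of replicate 1.

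Cartpt was higher in ILC than in PLC in every Sham pair. Its normalised level in PLC was 0.843, 3.31, 0.553 and 1.17 CPM in replicates 1, 3, 4 and 5. In ILC it was 8.53, 9.87, 4.57 and 6.42 CPM. All 4 ILC libraries lay above all 4 PLC libraries, as was the case for 13 of the 13401 transcripts (0.097%) with ILC above PLC and for 55 (0.41%) with PLC above ILC. The read counts behind these levels were 24, 9, 16 and 37 in PLC and 44, 2, 120 and 168 in ILC, so that the ILC value of replicate 3 rests on 2 reads. The mean was 1.47 CPM in PLC, with a range of 0.553 to 3.31, and 7.35 ± 2.33 CPM in ILC (SD, n = 4 each).

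The fitted log2FC (PLC minus ILC) of Cartpt was -2.74 ± 0.44 (SE), or 6.68-fold higher in ILC. The log2 ratio within pairs was -3.18, -1.54, -2.82 and -2.35. The ratio of pair 3 lay close to that pair's median absolute ratio of 1.41 over all transcripts, against 0.91, 0.21 and 0.13 in pairs 1, 4 and 5. With edgeR the unadjusted p was 0.00016 and the adjusted p 0.946, so Cartpt did not pass there, nor did it without the block (adjusted p = 1), with median-ratio factors (0.951) or in the fit of all 16 libraries (0.555). It passed on the 4 pairs with DESeq2 (adjusted p = 6.36e-05), with voom (0.000358) and with edgeR without the filter on low counts (0.000195). On pairs 4 and 5 alone it passed with edgeR (adjusted p = 0.000275) and DESeq2 (1.69e-05). It also passed with edgeR when replicate 1 was left out (adjusted p = 0.000221). Leaving out replicate 3, 4 or 5 gave adjusted p of 0.759, 0.915 and 0.424. Over all these fits the log2FC ran from -2.14, without the block and without the ILC libraries of replicates 1 and 3 (adjusted p = 1), to -2.92, without replicate 3. In pooled tissue, more cells with the peptide and more RNA per cell cannot be told apart. Neighbouring tissue in a punch would also enter the level. Scaled over all Sham libraries, Cartpt averaged 206 CPM in NaCcore and 189 CPM in NaCshell, against 9.23 CPM in ILC and 1.84 CPM in PLC. The part of such tissue in the Cartpt difference was not tested.

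In the FT rats Cartpt was again higher in ILC. FT levels were 1.28, 5.97, 2.68 and 2.36 CPM in PLC and 9.47, 30.7, 2.83 and 7.36 CPM in ILC, in the order of replicates 1, 3, 4 and 5. ILC exceeded PLC in all 4 pairs, by very little in replicate 4, and the groups overlapped. The log2FC of -1.79 ± 0.34 passed (edgeR adjusted p = 0.0423). Without the block or without replicate 3, 0 FT transcripts passed with edgeR, so Cartpt did not pass there. The interaction of region and treatment for Cartpt was 1.03 on the log2 scale (adjusted p = 0.878), so a difference between Sham and FT was not detectable.

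**Figure D2:**
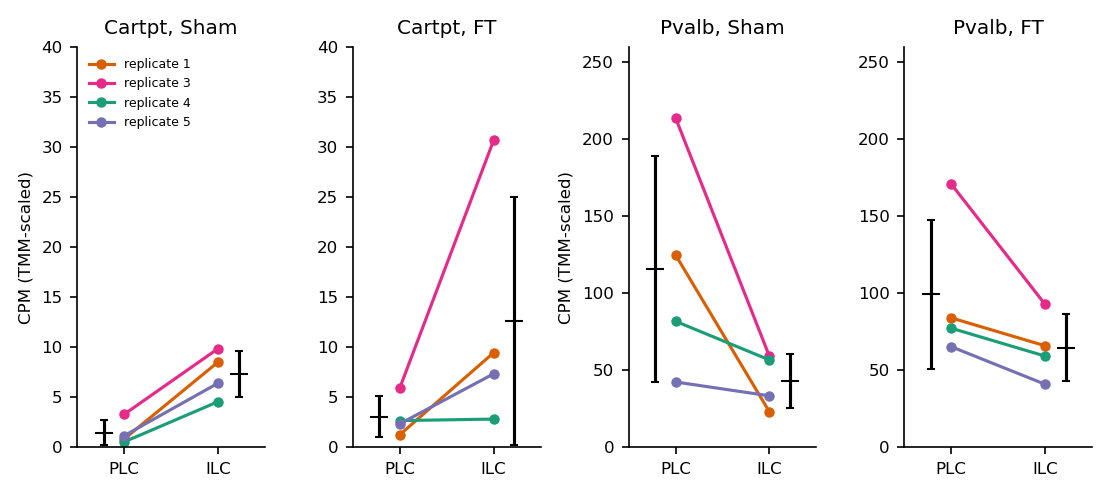
CPM of Cartpt and Pvalb in PLC and ILC for Sham and FT, with a line joining the libraries of 1 replicate and black bars for mean ± SD (n = 4). In Sham, the 4 ILC libraries lie between 4.57 and 9.87 CPM for Cartpt, all above the PLC libraries, whereas Pvalb is higher in PLC in each pair with overlapping groups.

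Pvalb was the named gene with the smallest p among those higher in PLC. Sham PLC libraries held 125, 214, 81.9 and 42.5 CPM and ILC libraries 23.1, 59.2, 56.8 and 33.5 CPM (replicates 1, 3, 4 and 5). PLC was above ILC in each pair, yet the groups overlapped, since PLC replicate 5 lay below ILC replicates 3 and 4. The log2FC was 1.24 ± 0.42 (edgeR adjusted p = 0.946). It was 0.44 on pairs 4 and 5 alone (adjusted p = 0.304), as the within-pair ratios of 2.44 and 1.85 in pairs 1 and 3 were much larger than the 0.53 and 0.34 of pairs 4 and 5. In FT, PLC was again higher in all 4 pairs, by 0.56 ± 0.11, and Pvalb passed (edgeR adjusted p = 0.0431). Like Cartpt, it did not pass in FT without the block or without replicate 3. The interaction was -0.61 (adjusted p = 0.878).

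Pvalb was the 1 interneuron gene with an unadjusted p under 0.05. Of 7 tested, 6 had a log2FC above 0, and none passed. Their median was 0.16, against 0.02 over all transcripts tested. Sst, which marks dendrite-targeting interneurons, had a log2FC of 0.02 ± 0.63, with within-pair values of -2.23, 2.22, -0.11 and 0.34. Vip was higher in PLC in each pair, by 0.65, 0.4, 0.27 and 0.08 (log2FC 0.34 ± 0.28). Gad2, which encodes a GABA-synthesising enzyme, differed by 0.11 ± 0.28. Sncg, a marker of a cholecystokinin class, was the member with a negative value, at -1.03 ± 0.52.

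The 12 named transcripts with the smallest p among those higher in PLC in all 4 pairs had log2FC of 0.75 to 1.41 and p of 0.0161 to 0.0513, and 0 of them passed. Direction alone says little here, since 11.7% of all tested transcripts were higher in PLC in all 4 pairs. Besides Pvalb they included Lamp5, a membrane protein of upper layer neurons and neurogliaform cells, at 0.79 ± 0.34. Lamp5 measured 137, 92.4, 146 and 111 CPM in PLC and 46.3, 39.5, 114 and 97.7 CPM in ILC. Rbx1, a subunit of cullin ubiquitin ligases, was higher by 0.95 ± 0.41, and Vps29, of the retromer sorting complex, by 1.23 ± 0.5. MT-ATP8, a mitochondrially encoded subunit of ATP synthase, was higher by 1.12 ± 0.49, and Hbb, the beta chain of haemoglobin, by 1.41 ± 0.61. The remaining members were Tmx2, Pter, Polr2k, Necap1, Trappc2 and Naa20. On pairs 4 and 5 alone all 12 kept a positive value and 0 passed, with Hbb at 0.07, Rbx1 at 0.15 and Lamp5 at 0.28. Haemoglobin genes have near-identical copies, so their counts are uncertain.

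Among the 12 named transcripts with the smallest p that were higher in ILC in all 4 pairs, log2FC ran from -0.63 to -2.74 and p from 0.00016 to 0.0651. All 4 pairs were higher in ILC for 4.31% of tested transcripts. Cartpt apart, the group held Necab2, a neuronal calcium-binding protein, at -0.89 ± 0.32. Necab2 read 28.9, 35, 14.4 and 23.9 CPM in PLC against 93.8, 64.2, 23.4 and 29.6 CPM in ILC, with overlapping groups. OTOF, which encodes otoferlin, a calcium sensor of vesicle release, differed by -0.95 ± 0.37. Igfbp2, a secreted binding protein for insulin-like growth factors, differed by -0.63 ± 0.28, and Nr3c2, the mineralocorticoid receptor, by -0.91 ± 0.43. Myh11, the myosin heavy chain of smooth muscle, differed by -0.81 ± 0.34, and Lmo1, a LIM-domain transcriptional regulator, by -1.71 ± 0.63. Aatk, Tmem192, Adcy7, Traf3ip1 and Matn2 completed the group. OTOF and Matn2 are on the list of upper layer genes, as is Lamp5 on the PLC side. On pairs 4 and 5 alone all 12 kept a negative value, and Cartpt was the member that passed.

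**Figure D3:**
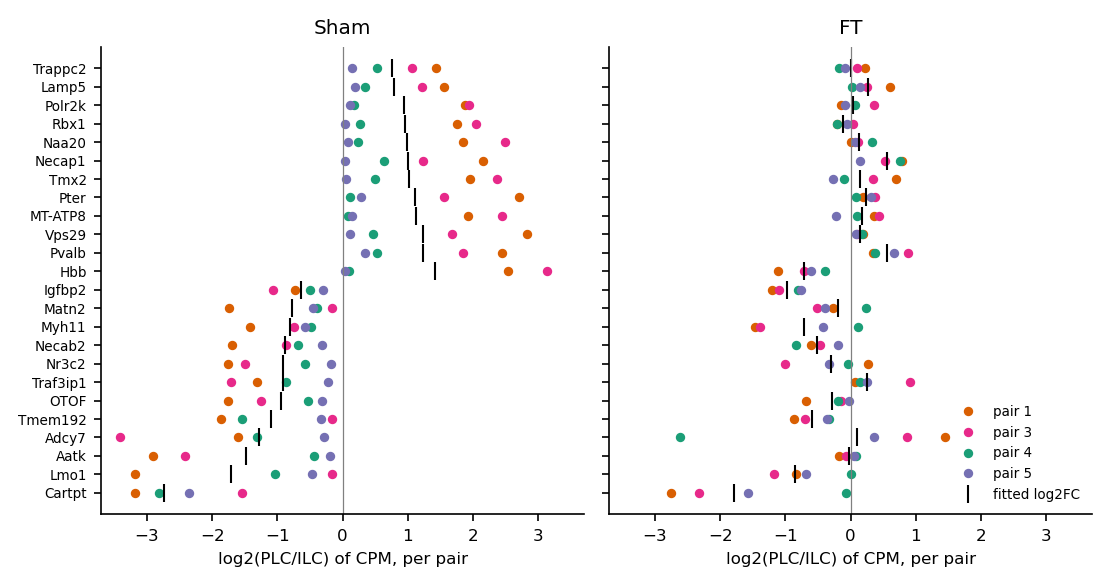
log2 ratio of PLC to ILC in each pair for the 24 named transcripts, in Sham and in FT, with black ticks for the fitted log2FC. In Sham, pairs 1 and 3 lie far from 0 and pairs 4 and 5 near it for most transcripts, whereas Cartpt is at -2.35 or below in pairs 1, 4 and 5.

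In FT, 10 of the 12 transcripts higher in PLC and 10 of the 12 higher in ILC had the same direction. Of these, 2 and 4 passed in FT, where 1.21% of all tested transcripts were called higher in PLC and 1.51% higher in ILC. Of the 1796 named transcripts tested in FT, 6.74% were called, 56 higher in PLC and 65 in ILC. Pvalb and Necap1 passed on the PLC side, with Necap1, a clathrin-coat accessory protein, at 0.55 ± 0.13 (edgeR adjusted p = 0.0657). On the ILC side these were Cartpt, Necab2 at -0.52 ± 0.12 (edgeR adjusted p = 0.0603), Tmem192 at -0.59 ± 0.16 (0.0968) and Igfbp2 at -0.98 ± 0.13 (0.00962). Hbb passed in the opposite direction, at -0.71 ± 0.12 (edgeR adjusted p = 0.0259). These transcripts were picked on their Sham values, and the FT pairs share no library with the Sham pairs. The study did process the Sham and FT samples of a replicate in parallel, so the 2 sets can share replicate effects. In FT replicate 3, 64.5% of PLC reads and 75.9% of ILC reads lay on the 50 most counted transcripts.

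The 28 transcripts called on pairs 4 and 5 alone included 5 with a gene name, Cartpt, Mlf1, Wdr96, Gpc3 and Ttr, and 6 that were too low to be tested over all 4 pairs. Mlf1 had 4 and 3 reads in PLC and 20 and 20 in ILC in replicates 4 and 5, a log2FC of -2.67 (edgeR adjusted p = 0.082). Wdr96, also known as Cfap43, a protein of motile cilia, had 24 and 9 reads in PLC and 49 and 81 in ILC, a log2FC of -2.16 (edgeR adjusted p = 0.0819). Gpc3, a cell-surface heparan sulfate proteoglycan, was higher in ILC by 0.65 on the log2 scale in those pairs (edgeR adjusted p = 0.082), but was higher in PLC in pair 1, at 1.61. Ttr, the thyroxine carrier made in bulk by the choroid plexus, was higher in PLC there at 0.93 (edgeR adjusted p = 0.0871), with reads of 255 and 167 against 134 and 64. It went the other way in pairs 1 and 3, at -0.82 and -4.15. In FT, 21 of the 28 were tested, 20 had the same direction and 12 passed in it, against 2.72% of all transcripts tested. With edgeR, 0 FT transcripts passed without the replicate block or without replicate 3, and 1 on FT pairs 4 and 5 alone. These 28 were chosen after their values were seen, and the FT pairs were not used in choosing them.

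A pair of transcripts without a gene name also stood out, again picked after their values were seen. ENSRNOT00000037529 measured 11.1, 7.36, 14.8 and 7.42 CPM in PLC and 4.46, 4.93, 5.48 and 3.06 CPM in ILC, with no overlap. Its log2FC was 1.29 ± 0.35 (edgeR adjusted p = 0.946), and it passed with voom (adjusted p = 0.0164) and on pairs 4 and 5 (0.00294). FT gave 1.09 ± 0.18, again without overlap (edgeR adjusted p = 0.0246). PLC lay wholly above ILC for 0.41% of tested transcripts in Sham and 0.405% in FT. ENSRNOT00000013408 had 5.66, 8.1, 34.8 and 16.8 CPM in PLC and 2.91, 0, 13.9 and 8.45 CPM in ILC. The 0 is the shallow ILC library of replicate 3, where a count of 0 allows up to 3 reads at 4.93 CPM each. Its log2FC was 1.19 ± 0.37, and it passed with voom (adjusted p = 0.019) and on pairs 4 and 5 (0.00284). Its FT value was 0.86 ± 0.18 (edgeR adjusted p = 0.0585).

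With edgeR, the block and the low-count filter, 0 of 13401 Sham transcripts passed over the 4 pairs, so no list, layer markers included, held a call. Of the 24 upper layer and 38 deep layer genes listed, 9 and 5 had a named transcript that was tested. Of 9 upper layer genes, 6 were higher in PLC and 3 in ILC, with a median log2FC of 0.1, and of 5 deep layer genes 2 were higher in PLC and 3 in ILC, with a median of -0.31. In pairs 4 and 5 the upper layer medians were 0.01 and 0.06 and the deep layer medians -0.06 and 0.17. Of the upper layer genes, Lamp5 was higher in PLC in all 4 pairs (log2FC 0.79), and OTOF (-0.95) and Matn2 (-0.78) were higher in ILC in all 4. Rasgrf2, of upper layer neurons, differed by 0.1 ± 0.33, and Sema3e, a guidance ligand of deep layer neurons, by 0.17 ± 0.35. Wfs1, an endoplasmic reticulum protein, was higher in ILC in pairs 1, 4 and 5 and higher in PLC in pair 3. It did not pass in Sham, at -0.66 ± 0.49, and passed in FT at -0.49 ± 0.12 (edgeR adjusted p = 0.0798). The 9 genes of cortical area patterning had a median of 0.08, and 0 passed.

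Neuropeptide genes, the group that holds Cartpt, went both ways. Of 9 tested, 6 were higher in PLC and 3 in ILC, 0 passed, and the median was 0.02, with pair medians of -1.31, 1.19, 0.03 and 0.08. PENK, the enkephalin precursor, was higher in ILC in each pair, at -0.12, -1.03, -0.07 and -0.24 (log2FC -0.33 ± 0.29), and passed in FT at -0.42 ± 0.09 (edgeR adjusted p = 0.0603). Tacr3, the neurokinin B receptor, was higher in PLC in pairs 1, 4 and 5, at 1.03, 0.64 and 0.55, and lower in the shallow pair 3, at -0.24. Its log2FC of 0.61 ± 0.33 did not pass (edgeR adjusted p = 0.946), whereas in FT it was 1.18 ± 0.15 with no overlap (adjusted p = 0.00942). In FT, all PLC libraries lay above all ILC libraries for 52 of 12846 transcripts (0.405%). Cck, the cholecystokinin precursor, had within-pair values of -1.99, 2.08, 0.03 and 0.46.

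Respiratory chain genes were mostly higher in PLC in Sham, without passing. Of 31 respiratory chain genes, 29 were higher in PLC and 2 in ILC, with a median log2FC of 0.45. Their medians by pair were 0.95 and 1.76 in pairs 1 and 3 but 0.04 and 0.08 in pairs 4 and 5, and in FT the list's median was -0.19. Over all transcripts the pair medians were 0.05, 0.9, -0.01 and 0.01. Of these 31 genes, 0 passed in Sham and Sdhc, a subunit of succinate dehydrogenase, was the 1 with an unadjusted p under 0.05, at 1.04. For the 26 cytosolic ribosomal protein transcripts 16 were higher in PLC and 10 in ILC and the Sham median was 0.41, with pair medians of 0.07, 1.57, -0.11 and 0.02, and 0 passed. Under FT this list's median was -0.52, and 18 of 25 passed as higher in ILC against 1.51% of all transcripts. Ribosomal protein genes have many near-identical copies, so the counts of single members are uncertain. The part of library quality in these list medians was not tested.

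Of 21 oligodendrocyte genes, 15 were higher in ILC and 6 in PLC, with a median of -0.43. The pair medians were -0.66, 0.63, 0.17 and -0.52, so the pairs did not share a direction. Summed over the list, PLC ranged from 750 to 1821 CPM and ILC from 587 to 1478 CPM. Astrocyte genes (12) had a median of -0.11 and microglial genes (6) one of -0.01. The 8 meningeal and choroid plexus genes had a Sham median of -0.2, with summed levels of 245 to 675 CPM in PLC and 227 to 522 CPM in ILC. In FT that median was -0.73, and 3 of 7 tested passed as higher in ILC. The FT shares called higher in ILC were 1.51% of all transcripts and 65 of the 1796 named ones. Ptgds, a prostaglandin synthase of the meninges, was among the 3, at -0.86 ± 0.17 (edgeR adjusted p = 0.0451), and in Sham differed by 0.35 ± 0.33. For the 7 striatal genes the Sham median was -0.22, with 0.03 and -0.01 in pairs 4 and 5, and the FT median was -0.2. Against the same FT shares, 3 of these 7 genes passed as higher in ILC. Among these was Adora2a, the adenosine receptor of striatal projection neurons, which differed by -1.11 ± 0.21 in FT (edgeR adjusted p = 0.0444) and by -0.22 ± 0.45 in Sham. The part of neighbouring tissue in these FT values was not tested.

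**Figure D4:**
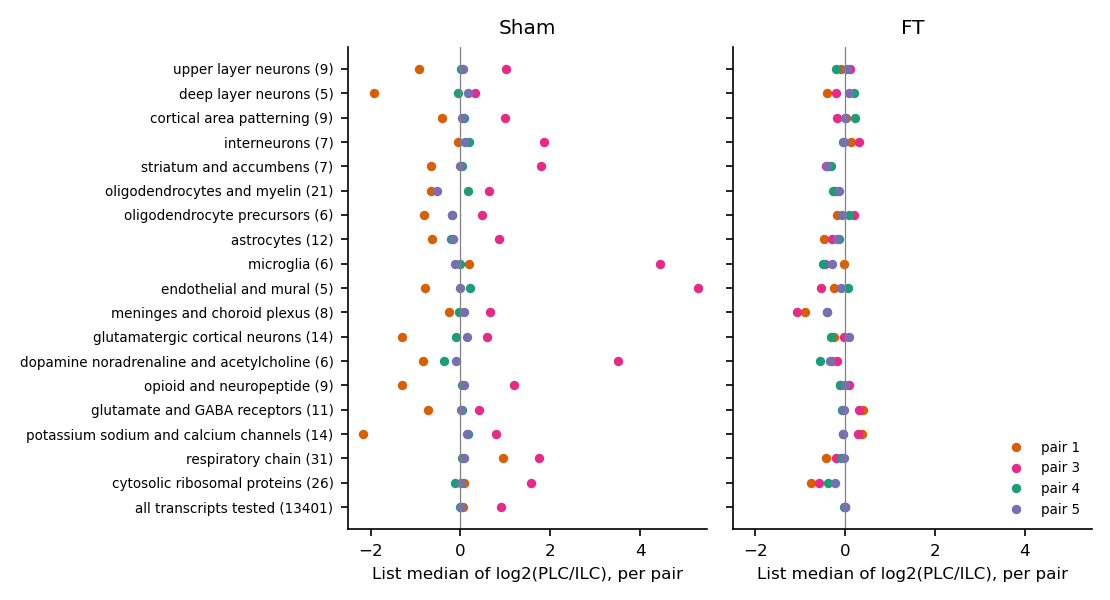
Median log2 ratio of PLC to ILC over the members of each fixed gene list (number tested in brackets) by pair, for Sham and FT. Lists with fewer than 5 tested members are left out, and all tested transcripts are shown as well. In Sham, the list medians of pairs 1 and 3 spread widely, up to 5.28 for the endothelial and mural list in pair 3, whereas those of pairs 4 and 5 stay between -0.52 and 0.21.

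No receptor or channel gene passed in Sham, where 0 of 13401 transcripts did with edgeR, the block and the low-count filter. Of the 37 receptor and 55 channel genes listed, 11 and 14 had a named transcript that was tested. The 11 glutamate and GABA receptor genes had a median of -0.13 and the 14 potassium, sodium and calcium channel genes one of -0.33. For the channels the medians were -2.18 and 0.8 in pairs 1 and 3 and 0.16 and 0.15 in pairs 4 and 5. Cacnb4, a calcium channel beta subunit, was higher in PLC in each pair, at 0.79, 0.43, 0.23 and 0.15 (log2FC 0.4 ± 0.29), and passed in FT at 0.39 ± 0.09 (edgeR adjusted p = 0.0736). The 14 glutamatergic neuron genes had a median of -0.22, and pairs 4 and 5 gave -0.09 and 0.14. Of the serotonin system list, 1 transcript had a name here and it was too low to be tested.

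The FT rats gave many more calls than the Sham rats from as many libraries. In FT, 350 of 12846 transcripts (2.72%) passed with edgeR, 156 higher in PLC and 194 in ILC, but 0 passed without the replicate block, 34 (0.267%) when replicate 1 was left out, 0 when replicate 3 was left out, 639 (5.09%) without replicate 4, 195 (1.61%) without replicate 5, and 1 (0.00744%) on pairs 4 and 5 alone. DESeq2 called 446 (6.43%), voom 428 (3.33%), edgeR with median-ratio factors 384 (2.99%), edgeR without a low-count filter 1051 (5.09%), and an adjusted p of 0.05 left 76 (0.592%). Of the 349 called transcripts that were also tested in Sham, 212 (60.7%) had the same direction in Sham over 4 pairs, and 268 of 348 (77%) did on Sham pairs 4 and 5 alone. The difference between the treatments was tested directly as an interaction in a fit of all 16 libraries. There, 0 of 14096 transcripts passed (edgeR, smallest adjusted p = 0.878), 551 had an unadjusted p under 0.05, and DESeq2 and voom also called 0, whereas 5 (0.0218%) passed without a low-count filter and 1 (0.00688%) on pairs 4 and 5 alone. So the larger count in FT does not show that the regions differed more under the drug.

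Over the 25 Sham regions, Cartpt was near its lowest in the prefrontal areas. Scaled over all Sham libraries, it averaged 9.23 ± 2.73 CPM in ILC, 1.84 ± 1.48 in PLC and 1.16 ± 0.894 in the cingulate cortex (CGC), ranks 22, 24 and 25. It was highest in the ventromedial hypothalamus (VMH) at 295 ± 371 CPM, followed by the periaqueductal grey (PAG) at 253 ± 321 and NaCcore at 206 ± 216 (SD, n = 4 each). Spread over libraries was as large as the mean in these 3 regions, so their order is not settled. ILC ranged from 5.9 to 12.2 CPM, above all of PLC (0.724 to 4 CPM) and of CGC (0.294 to 2.19 CPM), whereas PLC and CGC overlapped. The insular cortex ranged from 3.22 to 31.7 CPM and overlapped ILC. Pvalb had the reverse order among the medial areas: 184 ± 57 CPM in CGC (rank 8), 146 ± 86.9 in PLC (rank 10) and 54.6 ± 22.5 in ILC (rank 19). ILC lay between 28.4 and 73.5 CPM, below all CGC libraries (132 to 237 CPM) and overlapping PLC (55.6 to 258 CPM).

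**Figure D5:**
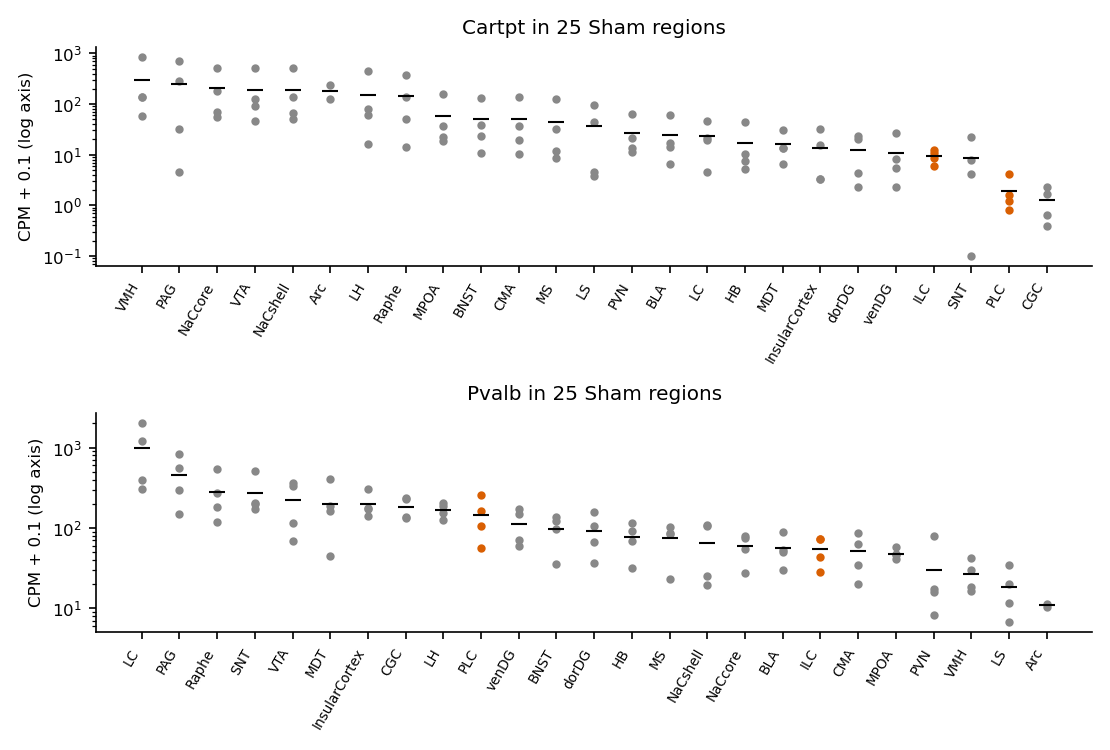
CPM (plus 0.1, log axis) of Cartpt and Pvalb in each Sham library of the 25 regions, ordered by mean (black tick), with PLC and ILC in orange. Cartpt averages 9.23 CPM in ILC and 1.84 CPM in PLC, and Pvalb 54.6 CPM in ILC and 146 CPM in PLC.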

How the data were processed

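Per the labels and the study's methods, the authors aligned paired-end reads with STAR to rn5 and counted them per Ensembl transcript with HTSeq. The deposited values are raw read counts in 1 file per sample, and the last 5 summary lines of each file were left out. Tool versions and the strand setting of the counting are not given in the sources used here. Gene names came from the study's supplementary list, which covers 1844 of 29188 transcripts; all were called there for FT against Sham in other comparisons, so they are not a random set. Transcripts were filtered with filterByExpr (minimum count 10), scaled by TMM and fitted with edgeR 4.0.16 (R 4.3.3) quasi-likelihood tests. Adjustment was by Benjamini-Hochberg, with a call at an adjusted p of 0.1 and an absolute log2FC of 0.322. The replicate number was a block. The study itself used replicate numbers as batches for FT against Sham within a region, not for pairing regions. SE is the log2FC over the root of its F statistic. Alternatives used DESeq2 1.42.0 and limma 3.58.1. Named transcripts were the 12 with the smallest p in each direction and the same sign in all 4 pairs, plus up to 4 members of each of 22 fixed lists; Sncg, Adora2a, Gad2, Vip, Rasgrf2, Sdhc and those called on pairs 4 and 5 alone were chosen after their values were seen. All members and lists were chosen with earlier results of these data known. Replicates are pools of animals, and p-values measure the spread between pools. The scripts were tested on simulated data. The correlation of deviations from the group means between same-numbered Sham libraries was 0.088, 0.308, 0.717 and 0.646. Pairing of regions was inferred from the study's methods, where every region was collected in each replicate and replicate numbers served as batches for FT against Sham. PLC of replicate 3 deviated more with ILC of replicate 1 (0.496) than with its own partner.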

Additional observations from a re-analysis of the deposited data

Results flagged for a closer look

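Over the 24 named transcripts and 4 measures of library quality, 56 groups of 4 Sham libraries were examined for 1 library far from the rest, and 7 had one; about 1 in 20 would be so by chance. In ILC replicate 4, Pter stood at 129 CPM, Polr2k at 82 CPM and Myh11 at 6.74 CPM. In PLC replicate 3, Aatk stood at 51.5 CPM and Lmo1 at 4.42 CPM. In PLC replicate 5, Adcy7 stood at 1.39 CPM, and in ILC replicate 3, Nr3c2 stood at 14.8 CPM.

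For 5 named transcripts every Sham pair went one way and every FT pair the other. The share of all transcripts that did so was not counted. In Sham, 11.7% of all tested transcripts were higher in PLC in all 4 pairs and 4.31% in ILC, and in FT 12.3% and 13.2%. Of the 5, Hbb and Traf3ip1 had been picked for having the same sign in all Sham pairs. Hbb had a log2FC of 1.41 in Sham and -0.71 in FT, and Traf3ip1, a component of ciliary transport, -0.91 and 0.25. Ogn, a proteoglycan of the meninges, had 0.78 and -0.73. Rpl41 had 0.55 and -0.57 and Rpl37 0.89 and -0.53. The difference between the treatments, tested as an interaction in edgeR, had an adjusted p of 0.878 for each, and 0 of 14096 transcripts passed. On Sham pairs 4 and 5 alone the values were 0.07 for Hbb, -0.46 for Traf3ip1, 0.32 for Ogn, 0.09 for Rpl41 and 0.06 for Rpl37.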

How the results depend on the processing

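In Sham, edgeR with the replicate block called 0 transcripts, and without the block it also called 0 (148 at an unadjusted p under 0.05). DESeq2 called 1, limma voom with quality weights 13 and the fit without a low-count filter 34. Among settings chosen after seeing the data, replicates 4 and 5 only gave 28, and DESeq2 on them 6. Leaving out each replicate in turn gave 0 to 12, with 3 without replicate 1, 0 without replicate 3, 9 without replicate 4 and 12 without replicate 5. The remaining settings gave 0. In FT the count fell from 350 to 0 without the block, 76 at an adjusted p of 0.05 and 1 on replicates 4 and 5 only; it was 1051 without the low-count filter and 0 to 639 with a replicate left out. The interaction count was 0, 5 without the low-count filter and 1 on replicates 4 and 5 only. The causes were not tested. The ILC library of replicate 1 held a median of 85.5% of the Sham reads of the 34 transcripts called without a filter, 90.9% for those called without replicate 4 and 90.8% without replicate 5. The 24 named transcripts kept their direction in each fit that gave a value, save the last one below; Adcy7 gave none without replicate 5. Sst, near 0, became -0.016 with median-ratio factors and -0.054 in the fit of 16 samples, and ranged from -0.63 to 0.71 with a replicate left out; Cck ranged from -0.46 to 0.85. Without the block and without the ILC libraries of replicates 1 and 3, values were -0.063 for Tmx2, -0.15 for Necap1, -0.006 for Trappc2, -0.057 for Vip, 0.96 for Aatk, 1.254 for Lmo1, 0.18 for Tmem192, 0.40 for OTOF and 1.33 for Igfbp2. At 543403 reads, the ILC library of replicate 3 limits low transcripts most.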
